A study of Salmo salar with 30 samples.

Results

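Ependymins were represented by 6 probes of a salmonid oligonucleotide microarray, out of 21136 probes retained for analysis and 43689 on the array that are not controls. The members were all probes named ependymin in the study's lists of responsive probes or in its text: 5 carry the name ependymin precursor (C175R070, C210R115, C027R097, C005R058 and C015R062) and 1, C152R152, the name ependymin-1 precursor. These lists were chosen on the values of these same arrays. The 5 precursor probes entered through the difference between environments in family X11, and C152R152 through that difference in X11 and over all families. Values of those contrasts are therefore given below as a description without a test, and tests were kept for measures that the choice did not use. These are the environments in X22 and X35 for the 5 precursor probes, the difference between X22 and X35, and the deviations of juveniles from their group means. The last 2 also use arrays that took part in choosing some of the probes, though not the contrast that chose them. All 6 were among the retained probes.

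Ependymins are secreted glycoproteins of teleost fish. They are made by cells of the meninges and are abundant in the fluid that surrounds the brain, where they bind calcium and have been connected with contact between cells and the extracellular matrix. In goldfish and zebrafish they have been studied for their part in memory formation and in the regrowth of the optic nerve. Salmonid genomes carry several copies of many genes, so probes that share an ependymin name may report different transcripts. The scanner files hold no gene names for these probes, and the study calls the contig behind C152R152 a possible chimera, so its signal cannot be assigned to an ependymin with certainty. The array's design names also differ among the 6: C015R062 and C152R152 carry a cluster-type identifier, as do 45.7% of the probes, and the other 4 carry identifiers of another form.

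The samples were 30 whole heads of Atlantic salmon (Salmo salar) at emergence, when the yolk is used up, including brain, eyes and heart. In the enriched environment embryos and larvae were incubated in gravel, and in the unenriched environment they were incubated in a bare tank. Each environment held 5 juveniles of each of 3 full-sib families: X11, from a wild dam and a wild sire of Little River, and X22 and X35, each from a wild Little River dam and a farmed sire of the Saint John River strain. Each family had 1 tank per environment, so within a family the tank and the environment cannot be told apart, and within an environment the tank and the family cannot either. On each array the juvenile's RNA was in Cy5 and a pool of all juveniles was in Cy3. Values below are log2 ratios of the juvenile over this pool, so 0 is the level of the pool, and differences between ratios of 1 probe compare juveniles but give no order between probes. Since the tissue is a whole head, a smaller share of cells of one type and less RNA per cell cannot be told apart.

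The 30 arrays lay on 8 slides, and their number limits the precision. The lowest correlation between the log2 ratios of any pair of arrays was -0.371, and the direction of all ratios follows the stated dyes. Between 28.2% and 42.9% of probes per array had a Cy5 signal above the limit used here, the mean plus 2 SD of that array's local background. In X35, replicates 1 and 2 deviated together from their group means in both environments while replicates 3 to 5 deviated the other way: over all probes the deviations of enriched and unenriched juveniles correlated at r = 0.04 to 0.54 within these sets and at r = -0.51 to -0.03 between them.

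Signal strength set C152R152 apart. C175R070, C210R115, C027R097 and C005R058 had Cy5 intensities above the limit on all 30 arrays. C015R062 was under the Cy5 limit on 3 arrays, all of X35. C152R152 was under it on 21 of 30 arrays and gave no ratio on 3 of them: Cy5 did not exceed the local background in X22 enriched replicates 3 and 5, and Cy3 was under its own limit in X11 enriched replicate 5.

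**Figure D1:**
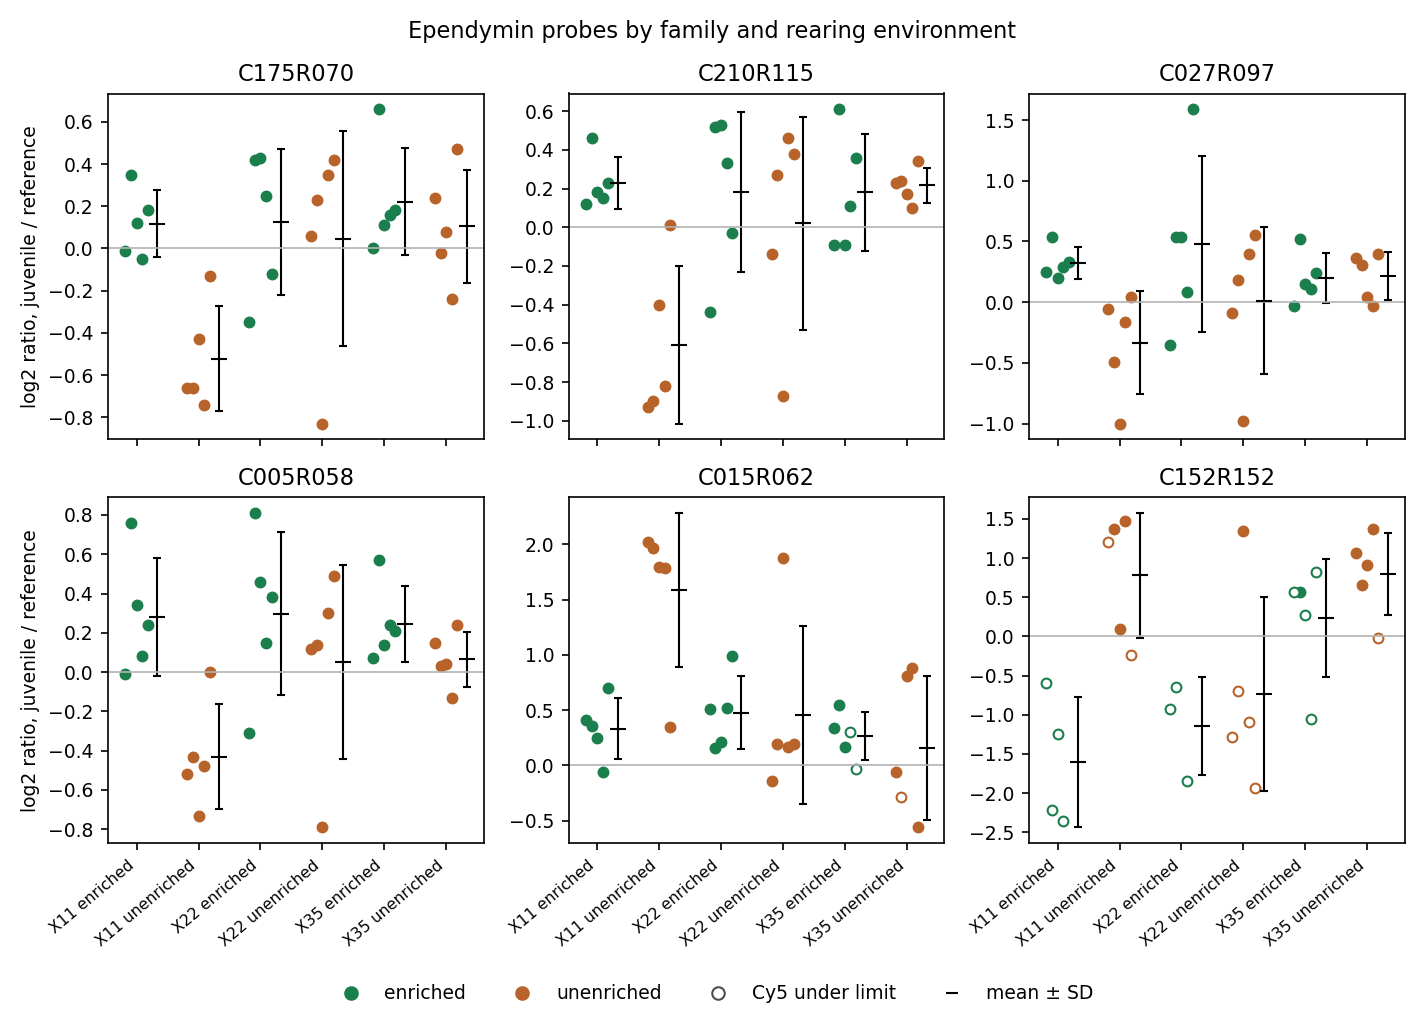
Log2 ratio of each juvenile over the pooled reference (y axis) for the 6 ependymin probes, by family and environment (x axis). Each point is 1 juvenile, open points had a Cy5 signal under the limit, and bars are the mean ± SD. In X11 unenriched juveniles, 4 of 5 points of C015R062 lie between 1.79 and 2.02 and the fifth at 0.35.

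In X11, 4 precursor probes were higher and C015R062 was lower in enriched than in unenriched juveniles. C175R070 had log2 ratios of -0.01, 0.35, 0.12, -0.05 and 0.18 in X11 enriched juveniles, replicates 1 to 5, against -0.66, -0.66, -0.43, -0.74 and -0.13 in X11 unenriched juveniles. The groups did not overlap, but the highest unenriched juvenile, replicate 5, lay only 0.09 below the lowest enriched one. C210R115 had 0.12, 0.46, 0.18, 0.15 and 0.23 in X11 enriched juveniles, against -0.93, -0.90, -0.40, -0.82 and 0.01 in X11 unenriched juveniles. Replicate 5 of the unenriched group was again the highest of its group.

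C027R097 had 0.25, 0.54, 0.20, 0.29 and 0.33 in X11 enriched juveniles, against -0.06, -0.49, -1.0, -0.16 and 0.04 in X11 unenriched juveniles, without overlap. C005R058 had -0.01, 0.76, 0.34, 0.08 and 0.24 in X11 enriched juveniles, against -0.52, -0.43, -0.73, -0.48 and 0.00 in X11 unenriched juveniles. Here replicate 5 of the unenriched group lay just above replicate 1 of the enriched group, and the other values were apart. The differences on the log2 scale were 0.64 ± 0.15 for C175R070, 0.84 ± 0.19 for C210R115, 0.66 ± 0.19 for C027R097 and 0.72 ± 0.18 for C005R058 (SE, n = 5 each), which are folds of 1.56 to 1.78.

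C015R062 ran the other way. Its log2 ratios were 0.41, 0.36, 0.25, -0.06 and 0.70 in X11 enriched juveniles, against 2.02, 1.97, 1.80, 1.79 and 0.35 in X11 unenriched juveniles. Replicates 1 to 4 of the unenriched group stood above every other X11 juvenile, and replicate 5 lay within the range of the enriched group. The difference was -1.26 ± 0.29 (SE, n = 5 each), or 2.39-fold lower in enriched juveniles, and it was -1.56 without replicate 5 of the unenriched group.

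C152R152 also was lower in enriched juveniles of X11, on a signal mostly under the limit. It had -0.60, -2.22, -1.25 and -2.35 in X11 enriched replicates 1 to 4 and no ratio in replicate 5, against 1.21, 1.37, 0.09, 1.47 and -0.24 in X11 unenriched juveniles. The groups did not overlap. Its Cy5 signal was under the limit in 5 of 5 enriched arrays and in 2 of 5 unenriched ones, with raw Cy5 intensities of 75.5 to 412 in enriched juveniles, against 409 to 1986.5 in unenriched juveniles. The 1986.5 was in unenriched replicate 3, whose ratio was 0.09. Cy3 of that spot was also high, at 4108, against a median of 745.25 over all arrays. The limit lay between 685 and 865 on the enriched arrays, so every enriched signal was under the limit and no fold is given.

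These contrasts chose the probes, and limma called all 6 in X11 (adjusted p under 0.05) where it called 12.9% of all probes. The ranges of enriched and unenriched X11 juveniles did not overlap for 4 of the 6 probes, and for 11.6% of all probes. Over all families limma, here fitted without a block for family, called 0 of the 6 and 0.615% of all probes. The differences were 0.28 to 0.38 for the 4 like probes, -0.38 for C015R062 and -1.0 for C152R152. In X11 the environments also lay mostly on different slides. Only slide 4 held X11 juveniles of both environments, enriched replicate 1 and unenriched replicates 3 to 5, and there the differences were 0.42 for C175R070, 0.52 for C210R115, 0.63 for C027R097, 0.40 for C005R058, -0.91 for C015R062 and -1.04 for C152R152. A fit with slide as a fixed block draws the X11 differences from slide 4 alone, with 1 enriched juvenile. It cannot decide whether the X11 calls hold apart from the slide.

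**Figure D2:**
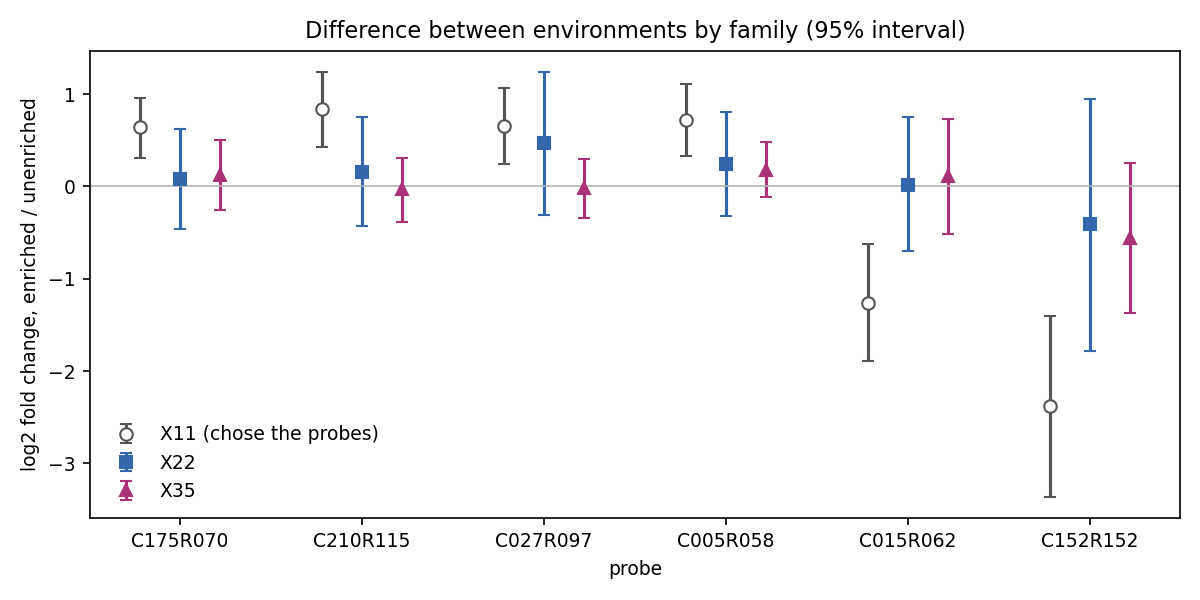
Log2 fold change of enriched over unenriched juveniles (y axis) for each probe (x axis) within each family, with 95% intervals from limma (5 juveniles per environment, fewer for C152R152). The X11 intervals, drawn open, are of the contrast that chose the probes, and every interval of X22 and X35 includes 0.

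Whether the environments differed outside the family that chose the probes was asked in X22 and X35 together. None of the 5 precursor probes passed the test: limma with family as a block gave differences of 0.10 for C175R070 (95% interval -0.22 to 0.42), 0.06 for C210R115 (-0.27 to 0.40), 0.22 for C027R097 (-0.21 to 0.66), 0.21 for C005R058 (-0.09 to 0.52) and 0.06 for C015R062 (-0.41 to 0.54). Adjusted p from limma lay between 0.655 and 0.94, and 0 of the 5 had an unadjusted p under 0.05. In this comparison limma called 0.0142% of all probes, and 9.44% had an unadjusted p under 0.05. The intervals do not show equal levels. They reach folds of 1.32 to 1.58 for the 4 like probes and, for C015R062, extend from 0.754 to 1.45. C152R152, chosen partly on these arrays, differed by -0.50 (95% interval -1.26 to 0.26).

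In X22 the ranges of the 2 environments overlapped for 6 of 6 probes (they did not for 2.27% of all probes). C175R070 had -0.35, 0.42, 0.43, 0.25 and -0.12 in X22 enriched juveniles, against 0.06, 0.23, -0.83, 0.35 and 0.42 in X22 unenriched juveniles. C015R062 had 0.51, 0.16, 0.21, 0.52 and 0.99 in X22 enriched juveniles, against -0.14, 0.19, 1.88, 0.17 and 0.19 in X22 unenriched juveniles. Unenriched replicate 3 stood alone in both probes, low in C175R070 and high in C015R062. It was also the lowest X22 juvenile in C210R115 (-0.87), C027R097 (-0.98) and C005R058 (-0.79). Its array was the brightest, with a median raw Cy5 signal of 831.5, against 57 to 487 on the other arrays, and it had the highest Cy5 limit. The part of this brightness in its ratios was not tested. An X22 enriched juvenile, replicate 5, had the highest C027R097 ratio of all 30 juveniles, 1.59, while its other precursor probes were between -0.12 and 0.99. The array of this juvenile had the lowest median raw Cy5 signal of all 30, at 57.

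The differences in X22 were 0.02 to 0.47, the highest being that of C027R097, and adjusted p from limma was 0.635 or higher for the 5 precursor probes, with 0.00473% of all probes called. Without unenriched replicate 3 the difference of C175R070 was -0.14, not 0.08, and that of C210R115 was -0.06, not 0.16. Without enriched replicate 5 the difference of C027R097 was 0.19 in X22, and 0.08 in X22 and X35 together. Slides 1 and 2 each held both environments of X22. On slide 1 the differences of the 4 like probes were -0.11 to 0.12 and that of C015R062 was 0.31. On slide 2, which held unenriched replicate 3, those of the 4 like probes were 0.46 to 0.55 and that of C015R062 was -0.53.

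In X35 the ranges also overlapped for 6 of 6 probes (they did not for 1.24% of all probes). C175R070 had 0.00, 0.66, 0.11, 0.16 and 0.18 in X35 enriched juveniles, against 0.24, -0.02, 0.08, -0.24 and 0.47 in X35 unenriched juveniles. C015R062 had 0.34, 0.55, 0.17, 0.30 and -0.03 in X35 enriched juveniles, against -0.06, -0.29, 0.81, 0.88 and -0.56 in X35 unenriched juveniles. The unenriched juveniles lay on both sides of the enriched ones in C015R062. The differences of the 5 probes were -0.03 to 0.18, adjusted p from limma was 0.962 or higher, and 0% of all probes were called (5.08% had an unadjusted p under 0.05). On slide 7, with 3 enriched juveniles and 1 unenriched, the differences were -0.21 for C175R070 and 0.91 for C015R062.

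The difference between environments in X22 was then set against that in X35. It did not pass the test for any of the 5 precursor probes, where the contrast of X22 minus X35 was -0.08 to 0.49 and adjusted p from limma 0.834 or higher. For C015R062 the 95% interval was -1.04 to 0.87. Limma called 0% of all probes in this contrast, and 6.71% had an unadjusted p under 0.05. X11 was left out of this test because its difference chose the probes.

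Between families, 1 of the 6 probes passed the test, a share near that of all probes (15.2% called), and its signal was mostly under the limit. The fitted log2 ratio of this probe, C152R152, differed by -1.45 ± 0.38 (SE) in X22 minus X35, averaged over environments, with an adjusted p from limma of 0.0128. In X22 enriched juveniles it had -0.93, -0.65 and -1.85 in replicates 1, 2 and 4 and no ratio in the other 2, against 0.57, 0.57, 0.27, -1.06 and 0.82 in X35 enriched juveniles. In X22 unenriched juveniles it had -1.28, -0.70, 1.34, -1.09 and -1.93, against 1.07, 0.65, 0.91, 1.37 and -0.02 in X35 unenriched juveniles. The family difference was -1.38 in the enriched and -1.53 in the unenriched environment, with 1 exception in each range: X35 enriched replicate 4 was below 2 of the X22 enriched juveniles, and X22 unenriched replicate 3 was near the top of X35.

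Cy5 was under the limit in 5 of 5 X22 enriched and 4 of 5 X22 unenriched arrays, and in 4 of 5 X35 enriched and 1 of 5 X35 unenriched arrays. The level in X22 was therefore hardly measured, and no fold is given. With the limit set on Cy5 as well, the probe was not retained and could not be tested. Slide 8 held X22 enriched replicate 4 and X35 enriched replicates 4 and 5, and there the difference was -1.73. With slide as a fixed block the call was lost (adjusted p = 0.46, limma), as it was with tank means as samples (adjusted p = 0.172). The other 5 probes differed between X22 and X35 by -0.10 to 0.26, with adjusted p from limma of 0.489 or higher.

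The X11 unenriched juveniles held the extreme group mean of each precursor probe. For the 4 like probes the lowest of the 6 group means was that of X11 unenriched juveniles, from -0.61 ± 0.41 for C210R115 to -0.33 ± 0.42 for C027R097 (SD, n = 5), and the other 5 group means lay between 0.01 and 0.48. For C015R062 the highest group mean was that of X11 unenriched juveniles, 1.59 ± 0.70, and the other 5 were between 0.16 and 0.48. In enriched juveniles X11 differed from X22 by -0.15 and from X35 by 0.07 in this probe, within the SD of those groups (0.21 to 0.33). These family differences involve the arrays that chose the probes and were not tested.

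The juveniles divided in C015R062. In 5 of them, X11 unenriched replicates 1 to 4 and X22 unenriched replicate 3, it was between 1.79 and 2.02, and in the other 25 it was between -0.56 and 0.99. The set was taken from these same values, and all but X22 unenriched replicate 3 belong to X11 unenriched juveniles. The difference of that group from X11 enriched juveniles chose the probes, so opposite levels in the set largely follow from the choice. They are given as a description. The same 5 juveniles had C175R070 ratios of -0.83 to -0.43, against -0.35 to 0.66 in the other 25. Their C005R058 ratios were -0.79 to -0.43, against -0.31 to 0.81. In C210R115 they were -0.93 to -0.40, with 1 other juvenile, X22 enriched replicate 1 at -0.44, inside that range. In C027R097 they were -1.0 to -0.06, with overlap. X11 unenriched replicate 5 and X22 unenriched replicates 1, 2, 4 and 5 shared tanks with these juveniles and had C015R062 at -0.14 to 0.35.

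**Figure D3:**
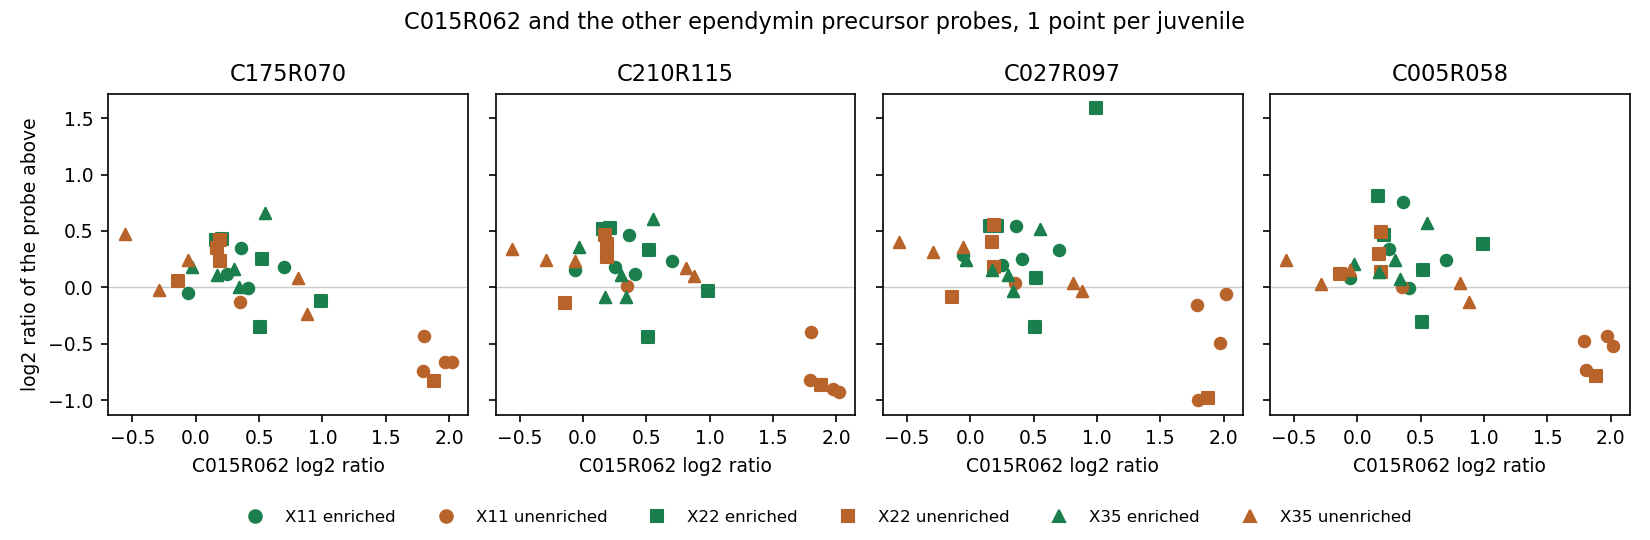
Log2 ratio of C015R062 (x axis) against that of each other ependymin precursor probe (y axis), with 1 point per juvenile and the group given by shape and colour. A separate set of 5 unenriched juveniles lies at 1.79 to 2.02 of C015R062 and below 0 of each other probe.

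Whether the probes moved together beyond the group means was tested on the deviations of each juvenile from its group mean, over the 15 pairs of probes. All 6 pairs among C175R070, C210R115, C027R097 and C005R058 were positive over 30 juveniles. C175R070 and C210R115 had r = 0.93 (permutation p = 1e-05, the smallest that 100000 permutations within groups can give, adjusted p = 7.5e-05, two-sided) and rho = 0.90. C175R070 and C005R058 had r = 0.86 and rho = 0.78 (adjusted permutation p = 7.5e-05 for r).

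The lowest correlations were 2 of the pairs with C027R097. C175R070 and C027R097 had r = 0.53 and rho = 0.52 (adjusted permutation p = 0.0381 for r). C210R115 and C027R097 had r = 0.51 and rho = 0.50 (permutation p = 0.0444 and adjusted p = 0.0512 for r). Each pair was also run without the 2 juveniles farthest from the median deviation of its first-named probe, so pairs can lose different juveniles. Then r was 0.86 for C175R070 with C210R115, 0.72 for C175R070 with C005R058, 0.66 for C210R115 with C005R058 and 0.80 for C027R097 with C005R058, each past the threshold by permutation. C175R070 with C027R097, which had passed over 30 juveniles, had r = 0.11 and did not pass, so that this call rested on the 2 juveniles left out. C210R115 with C027R097, which had not passed by r, had r = 0.24. In 24 juveniles, without the 5 with high C015R062 and the 1 left alone in its group, 3 of the 6 pairs passed by r, all without C027R097, with r of 0.78 to 0.88. By rank all 6 passed in these 24, with rho of 0.55 to 0.87 and adjusted permutation p of at most 0.0473.

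The pairs were also tested within single families, each with 10 juveniles, and the difference between families was not tested. In X35 all 6 pairs passed by r, with r of 0.78 to 0.97 and adjusted permutation p of at most 0.00932. By rank, C175R070 with C027R097 (adjusted permutation p = 0.0631) and C210R115 with C005R058 (adjusted permutation p = 0.0706) did not pass there. In X22 3 of 6 passed by r, with r of 0.57 to 0.98 over the 6, and in X11 1 of 6 passed by r, with r of 0.10 to 0.93. By rank no pair passed in X11 (lowest adjusted permutation p = 0.12). The probes of 1 array share its hybridisation as well as its RNA, and the part of each was not tested. In X35 the deviations over all probes also followed sets of replicates, as given above. How many pairs of other probes would pass was not tested, within families or over all juveniles. The counts of pairs that passed therefore do not show a relation particular to ependymin probes.

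**Figure D4:**
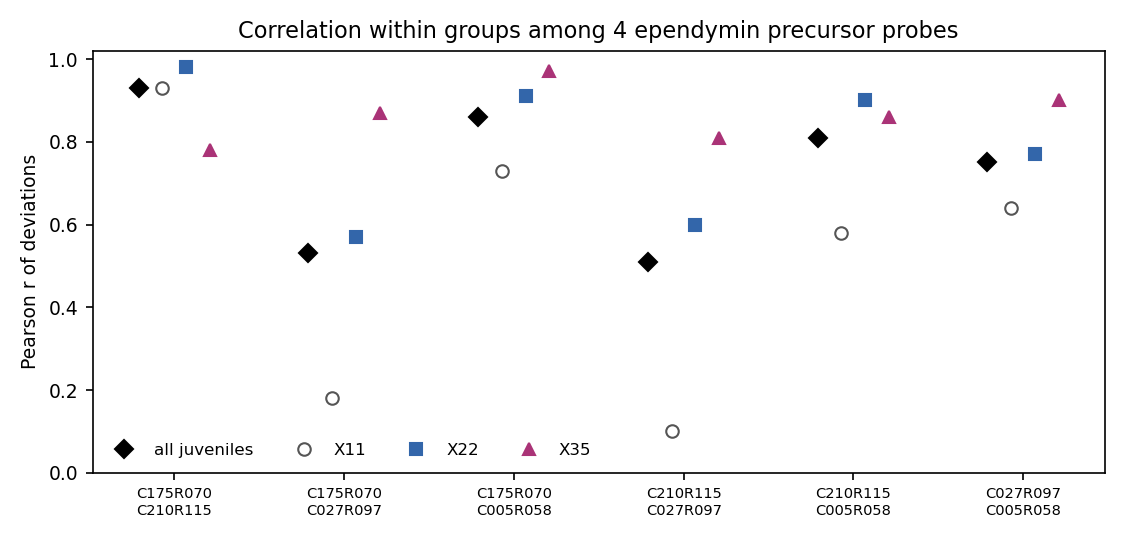
Pearson r of the deviations from group means (y axis) for the 6 pairs among 4 ependymin precursor probes (x axis), over all 30 juveniles and within each family of 10. The X35 values lie between 0.78 and 0.97, and the lowest X11 value, of C210R115 with C027R097, is 0.10.

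No relation of C015R062 to the 4 like probes was shown in the juveniles outside the separate set. Since the 5 juveniles form a cluster of their own, no pooled correlation is given. Leaving them out by their C015R062 ratios narrows the range of that probe, so an absence of relation is not shown either. In 24 of the other juveniles, those with a group partner among them, its r with the 4 like probes was -0.29 to 0.07 and no pair passed (lowest adjusted permutation p = 0.466). In X35, where no juvenile belonged to the set, its r with them was -0.56 to -0.17 (lowest adjusted permutation p = 0.272, n = 10). C152R152 had r of -0.63 to -0.42 with the 4 like probes over 27 juveniles, and 3 of these 4 pairs passed the permutation test. But 0 of 5 pairs with C152R152 passed without the 2 juveniles farthest from the median deviation of the other probe of the pair (lowest adjusted permutation p = 0.163).

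Markers of other tissues in the head were set beside these probes. Lists were made by name from probes that the study had chosen on contrasts of these arrays, so they are not independent of the environment. Their X11 calls are therefore a description. Their differences and p-values in X22 and X35 together are too, because the study's choice over all families used those arrays. The cardiac muscle list held 12 probes, all tested, and limma called 0 of 12 higher and 9 of 12 lower in X11 enriched juveniles, where it called 12.9% of all probes. Its median log2 ratio per juvenile ran from -0.77 to -0.35 in X11 enriched juveniles, against -0.14 to 0.78 in X11 unenriched juveniles, from -0.98 to -0.52 in X22 enriched, against -0.66 to 0.83 in X22 unenriched, and from -0.71 to -0.12 in X35 enriched, against -0.19 to 0.80 in X35 unenriched juveniles.

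In the 5 juveniles with high C015R062 the cardiac list was at 0.53, 0.78, 0.21 and 0.46 in X11 unenriched replicates 1 to 4 and at 0.83 in X22 unenriched replicate 3. It was at -0.14 in X11 unenriched replicate 5, which lacked the high C015R062 ratio. Myosin light polypeptide 4 (C086R103), an atrial muscle light chain in mammals, was near or above the pool in 8 juveniles, all unenriched, at 0.02 to 0.99, and at -5.33 to -2.75 in the other 22. The 8 were the 5 juveniles above, X22 unenriched replicate 1, and X35 unenriched replicates 3 and 4. In those last 3 juveniles C015R062 was -0.14, 0.81 and 0.88, and C175R070 was 0.06, 0.08 and -0.24. These values lie within the range of the other juveniles. Within X35, however, 0.81 and 0.88 were the highest C015R062 ratios and -0.24 was the lowest C175R070 ratio.

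Over deviations from group means, the cardiac list median correlated with the 4 like probes at r = -0.61 to -0.53 (30 juveniles, adjusted permutation p of 0.0418 to 0.068 over 30 relations computed between 6 probes and 5 lists, which were chosen after the values were seen). Spearman's rho was -0.55 to -0.40, with adjusted permutation p of 0.0675 or higher. Without the 2 juveniles farthest from the list's median, r was -0.42 to -0.30. C152R152 had r = 0.62 with the cardiac list over 27 juveniles and rho = 0.56 (adjusted permutation p = 0.0502 for r), and r = 0.44 without the farthest 2. The 5 juveniles with high C015R062 were kept in these correlations of C152R152 and the 4 like probes. No value without those 5 was computed, so a relation across the other juveniles is not shown. For C015R062 outside the separate set, r was 0.50 and rho 0.27 (24 juveniles, adjusted permutation p = 0.369 for r). Of the skeletal muscle list, 2 of 4 probes were called lower in X11 enriched juveniles, where limma called 12.9% of all probes. Its medians were -0.50 to -0.16 in X11 enriched juveniles, against 0.06 to 1.06 in X11 unenriched juveniles. The part of cardiac or skeletal muscle in the ependymin ratios was not tested.

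**Figure D5:**
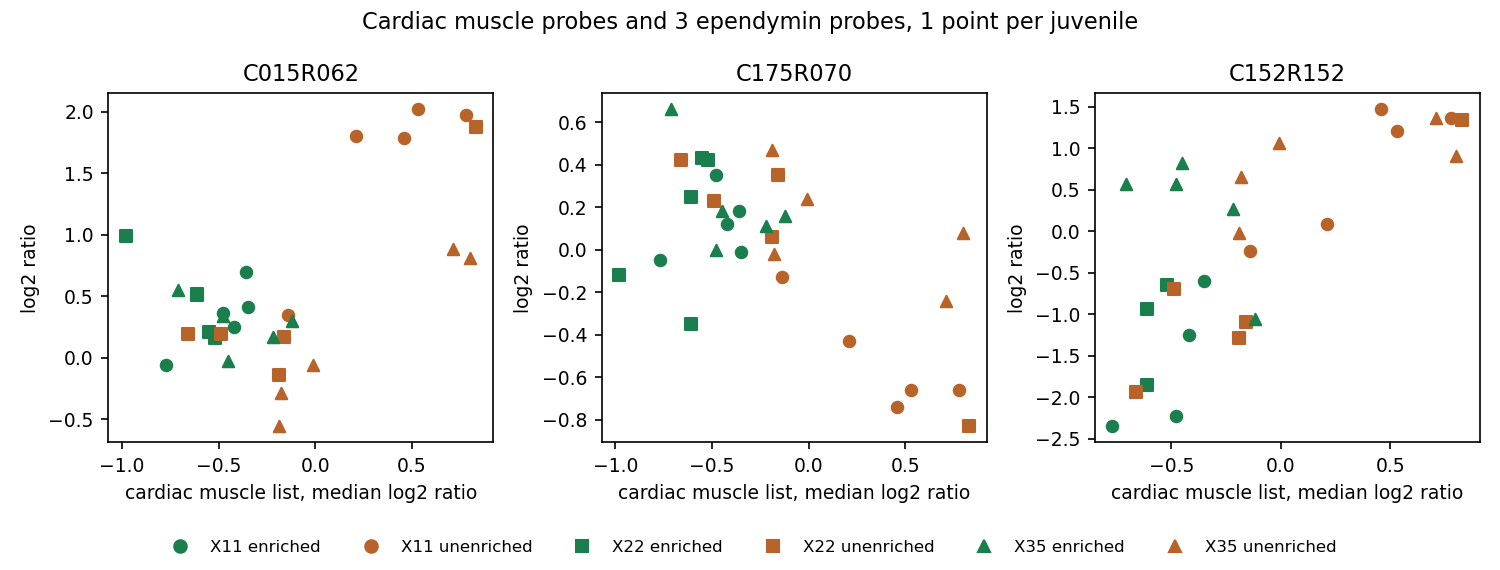
Median log2 ratio of the 12 cardiac muscle probes (x axis) against the log2 ratio of C015R062, C175R070 and C152R152 (y axes), with 1 point per juvenile and the group given by shape and colour. The 5 juveniles with the highest C015R062 lie at 0.21 to 0.83 of the cardiac list, and X35 unenriched replicates 3 and 4 at 0.80 and 0.71.

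The neuron and glia list, 34 probes, was made from names of neuron, glia and synapse genes and not of the meninges, where ependymins are made. The list's median per juvenile was 0.33 to 0.48 in X11 enriched juveniles, against -0.22 to 0.19 in X11 unenriched juveniles. Limma called 21 of 34 higher and 6 of 34 lower in X11, where it called 12.9% of all probes, but the list was drawn from probes chosen on such contrasts. In X22 and X35 together 0 of 34 were called in either direction, with a median difference of 0.24, where the median of all probes was 0. These values are also a description, since the choice over all families used the same arrays. The lowest unadjusted p were those of 2 myelin and lymphocyte protein probes, C196R170 at 0.73 ± 0.20 and C124R148 at 0.76 ± 0.23 (SE, adjusted p = 0.279 and 0.317 by limma), whose product is a component of myelin in mammals, and of neuronal growth regulator 1-like, C199R161, at -0.29 ± 0.11. No correlation of the list's median with the 4 like probes passed the test within groups. Over 30 juveniles r was -0.07 to 0.03 (adjusted permutation p of 0.821 or higher) and rho -0.05 to 0.16. Without the 2 juveniles farthest from the list's median, r was 0.06 to 0.25, so an absence of relation is not shown.

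Among the other lists 0 probes were called in X22 and X35 together, and their values are likewise a description. The extracellular matrix list, 18 probes, had a median difference of -0.11, with laminin subunit beta-2-like (C125R039), a basement membrane chain, at -0.46 ± 0.13, and 2 collagen probes, of the alpha-1 (C152R011) at -0.87 ± 0.28 and the alpha-3 (C261R017) at -0.33 ± 0.12 (SE). The cardiac list had a median of -0.48, with a cardiac myosin binding protein (C146R110) at -0.65 ± 0.24 an atrial myosin regulatory light chain (C251R080) at -1.77 ± 0.69 and myosin light polypeptide 4 at -2.07 ± 0.82 (SE). The 4 lens crystallins, the structural proteins of the lens, had a median of 0.14, with 2 gamma-crystallin M2-like probes at 0.64 ± 0.18 (C086R033) and 0.18 ± 0.26 (C070R090) and beta-crystallin B3 (C238R102) at -0.45 ± 0.17 (SE). The skeletal muscle list, 4 probes taken by name, had a median of -0.11. It held parvalbumin-7-like (C200R008), a calcium-binding protein, at -0.74 ± 0.36. It also held 2 troponin probes at -0.09 ± 0.16 (C020R081) and -0.13 ± 0.30 (C169R138). Whether the parvalbumin-7-like signal came from muscle or from another tissue of the head was not tested. In X11, limma called 5 of the 18 extracellular matrix probes higher and 8 lower in enriched juveniles. Of the 4 lens crystallins it called 2 lower there, where it called 12.9% of all probes. These X11 calls are a description too.

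The probes most like each ependymin probe over the 30 juveniles were mostly other ependymin probes for 2 of them. C175R070 was most like C210R115 (r = 0.95), C005R058 (r = 0.90) and a heat shock protein 67b2 probe (C243R123, r = 0.89). C005R058 was most like C175R070, the same heat shock protein 67b2 probe (r = 0.88) and C210R115 (r = 0.87). C210R115 was most like C175R070, followed by 2 probes that the study's lists do not name (C210R056, r = 0.89, and C240R082, r = 0.87). C027R097 was most like a chibby homolog 1 probe (C065R149, r = 0.87), an unnamed probe (C033R049, r = 0.83) and C005R058 (r = 0.81).

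C015R062 and C152R152 had no ependymin probe among their 3 nearest. C015R062 was most like a probe named only protein (C039R146, r = 0.93), a supervillin probe (C125R078, r = 0.87), an actin-binding membrane protein in mammals, and a membrane-spanning protein (C121R028, r = 0.86). C152R152 was most like a trim21-like ubiquitin ligase (C103R085, r = 0.89 over 23 juveniles), a probe named unknown (C264R127, r = 0.89 over 27) and a glycylpeptide N-tetradecanoyltransferase 2-like probe (C233R153, r = 0.87 over 27). These correlations are over juveniles that share tanks and group means, and are given as a description.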

How the data were processed

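Heads of 30 juveniles were each hybridised in Cy5 with a pooled Cy3 reference. Intensity values were deposited by the authors as median spot and background signals extracted in Imagene, with poor spots flagged. The authors also deposited a table of log2 ratios, loess-normalised within arrays and with missing values imputed by LSimpute, for 21117 probes. Ratios were recomputed here from the scanner intensities: backgrounds were subtracted, log2 Cy5/Cy3 was loess-normalised within arrays (span 0.4, 5 iterations), flagged spots and spots under the Cy3 limit (mean plus 2 SD of the background) were removed, and probes missing on more than 7 arrays were dropped, which left 21136. Missing ratios (1.08%) were not imputed. Ratios correlated with the deposited table at 0.9974 or higher on every array, and the deposited columns had medians of -0.074 to -0.004.

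Differences were tested with limma 3.58.1 in R 4.3.3, Benjamini-Hochberg adjusted over all retained probes, and correlations by permutation within groups. The study used SAM, which was not run. Named probes were the 6 members, the 3 most correlated probes of each, and up to 3 per marker list with the lowest p in X22 and X35 together. Members and lists were chosen with earlier results of these data known. The test over all 3 family means was planned but not used for the members, because X11 arrays chose them. Juveniles came from 1 tank per group, so p-values measure the spread between siblings of 1 tank. The limma fits were tested on simulated data. Alternatives were normexp correction, scaling between arrays, the deposited table, other limits for dim spots, array weights, blocks, tank means and leaving out each juvenile.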

Additional observations from a re-analysis of the deposited data

Results flagged for a closer look

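The 6 probes were screened for single juveniles far from their group in 35 groups with 4 or 5 ratios, of which chance marks about 1 in 20. The screen marked 4 values. In C015R062, X22 unenriched replicate 3 was at 1.88 while the other 4 juveniles were at -0.14 to 0.19, and X11 unenriched replicate 5 was at 0.35 while the other 4 were at 1.79 to 2.02. In C175R070, X22 unenriched replicate 3 was at -0.83 while the others were at 0.06 to 0.42, and X35 enriched replicate 2 was at 0.66 while the others were at 0.00 to 0.18. The array of X22 unenriched replicate 3 had the highest median Cy5 signal of all arrays. No difference between X22 and X35 in the response to environment was past the threshold.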

How the results depend on the processing

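In X22 and X35 together, in each of these families and in their difference, 0 of 5 precursor probes were called under every alternative run and with each juvenile left out. The sign of small differences was less stable. C015R062 was -0.02 in X22 and X35 together under normexp, and in X22 it was -0.12 under normexp, -0.08 under scaling between arrays and -0.05 with slide as a fixed block. In X35, array weights gave 0.03 for C027R097 and -0.17 for C015R062, and the slide block gave -0.21 for C175R070. Array weights gave 0.16 for C027R097 in X22, against 0.47 without them. With each juvenile left out in turn, in X22 and X35 together C175R070 was 0.00 to 0.16, C210R115 -0.05 to 0.13 and C015R062 -0.02 to 0.23. In X22, C175R070 was -0.14 to 0.20, C210R115 -0.06 to 0.32 and C015R062 -0.13 to 0.38. In X35, C210R115 was -0.14 to 0.03, C027R097 -0.10 to 0.04 and C015R062 -0.07 to 0.29. C152R152, not tested there, was 0.33 in X22 and X35 together with the slide block, against -0.50 without it.

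For X22 minus X35, the 1 call, of C152R152, fell to 0 under the slide block (-1.59), with tank means (-1.45) and with a Cy5 limit, under which the probe was not retained. It held when each juvenile was left out (-1.71 to -1.27, adjusted p 0.00158 to 0.0407 by limma). In X11 the count of members called was 2 under normexp, 3 with a replicate block, and 2 to 6 with juveniles left out (2 without unenriched replicate 1 or 2, and 3 without enriched replicate 2 or 5). Of all probes, X11 calls were 2717, but 2484 under normexp, 1328 with the replicate block and 1230 to 3043 with juveniles left out. With the slide block the X11 differences rest on 1 enriched juvenile, so no count is given. Over all families 130 calls were 61 to 295 with juveniles left out and became 22 under normexp, 64 with slide as a random block, 20 with slide as a fixed block and 84 without the Cy3 limit. For X22 minus X35, 3220 became 1438 with the Cy5 limit, 5970 with array weights, 257 with the slide block and 559 with tank means. In X22 and X35 together the 3 calls became 2 with the Cy5 limit or the slide block 0 with tank means and 5 without X35 unenriched replicate 2. In X22 the 1 call was 0 in 4 settings and 0 to 3 with juveniles left out, and in X35 the 0 calls became 2 with array weights. In the difference of responses, the slide block gave 31.

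Replicate numbers did not pair the juveniles: deviations of same-numbered juveniles correlated at -0.12 to 0.02 in X11, -0.08 to 0.11 in X22 and 0.05 to 0.54 in X35, and 1 of 5 in X22 and 1 of 5 in X35 were most like their own number. With this replicate block, 0 of 5 precursor probes were called in X22 and X35. A block for the 2 sets of X35 replicates, chosen after seeing the data, also gave 0. The median r of the 6 pairs of like probes, 0.78, was 0.68 to 0.85 with juveniles left out. C152R152 had a Cy5 signal under the limit on 21 of 30 arrays.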
